A study of Mus musculus with 50 samples.

Results

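Between 12h and 24h of activation in culture, most of the transcript differences between CD8+ T cells of knockout mice (KO) and of WT mice closed, and for more of these genes the larger change was made by the WT cells. The comparison used the 10 KO and 10 WT libraries of these 2 times, 20 of the 50 libraries of the series. Each genotype had 5 mice, 10 weeks old, of a strain background spelled C567BL/6J in the labels, and every mouse gave a library at each time. Splenic CD8+ T cells were isolated with anti-CD8a beads and stimulated in wells coated with anti-CD3e, with anti-CD28 in solution, each at 2 ug/ml. For each gene the KO change (24h minus 12h) minus the WT change was estimated with 1 term per mouse, so that each mouse served as its own baseline. This difference of changes is called the interaction here. The same fit was repeated with 8 mice, leaving out WT mice 1 and 4, which leaves 16 libraries. Libraries of these 2 mice held higher summed levels of immature thymocyte genes than those of the other WT mice. Their summed G2 and mitosis genes were higher up to 12h and lower at 24h. A gene is called where edgeR's quasi-likelihood test gave a Benjamini-Hochberg adjusted p under 0.05.

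When the T cell receptor and CD28 are engaged, a naive CD8+ T cell first induces immediate early transcription factors of the AP-1, EGR, NR4A, NFAT and NF-kB families. A growth programme driven by Myc follows, with nutrient transporters, glycolysis, nucleotide synthesis and ribosome production, and the cell then enters division and makes effector cytokines. Many of the early factors are induced only for a time.

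At 24h and 12h the libraries held 18013206 to 31293872 counts, and levels are given as CPM, counts scaled to a common library size. Cd8a, the CD8 alpha chain, was read at 577 to 716 CPM in KO cells and at 212 to 740 CPM in WT cells at 24h. At 12h it was read at 763 to 872 CPM in KO cells and at 258 to 820 CPM in WT cells, with both lowest values in WT mouse 1. The summed level of 18 immature thymocyte genes at 12h lay between 399 and 462 CPM in the KO group. In the WT group it reached 2810 CPM in mouse 1 and 1610 CPM in mouse 4, with 368 to 407 CPM in the other 3. Rag1, which recombines receptor genes, stood at 266 CPM in WT mouse 1 and 99.2 CPM in WT mouse 4 at 12h, and at 0 to 0.599 CPM in every other library of that time. These 2 WT mice also had the lowest Cd8a levels, and in bulk RNA fewer cells of a type and less RNA per cell cannot be told apart. Because of them the fit was made with 10 and with 8 mice. Changes, interactions and list counts are those of the 10-mouse fit unless 8 mice are named, and not all are given with 8.

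The genotypes were far apart at 12h and close at 24h. At 24h, 12 genes were called higher and 9 lower in KO cells among 11567 tested, or 0.182%, in a fit of that time's libraries. At 12h, 1626 genes were higher and 1813 lower in KO cells among 11517 tested, or 29.9%. At an unadjusted p under 0.05 the 24h fit held 1734 genes, and a DESeq2 test called 406, so the number at 24h depends on the test. Leaving out WT mouse 1 gave 141 calls at 24h and leaving out KO mouse 4 gave 3, and at 12h leaving out KO mouse 1, 3 or 5 gave 2245, 2256 or 2212. With 8 mice the calls were 613 genes at 24h (5.24%), or 227 without WT mouse 3, and 6231 at 12h (53.3%). The median absolute KO minus WT difference over all genes, on the log2 CPM scale, was 0.148 at 24h and 0.351 at 12h with 10 mice, and 0.0786 at 24h and 0.338 at 12h with 8 mice. The root mean square log2 distance between a KO and a WT library averaged 0.414 at 24h and 0.677 at 12h with 8 mice. At 24h that was close to the distance between 2 KO libraries (mean 0.359) and between 2 WT libraries (mean 0.336), whereas at 12h those means were 0.479 and 0.464. With 10 mice the distance between KO and WT libraries averaged 0.633 at 24h and 0.941 at 12h, while 2 WT libraries lay 0.74 apart at 24h and 1.02 at 12h.

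The interaction was called for 3025 of 12117 genes with 10 mice (25%), of which 1447 were positive (11.9%) and 1578 negative (13%). A closing gene is a called gene whose absolute KO minus WT difference was smaller at 24h than at 12h, and a widening gene is the reverse. Closing genes numbered 2829, or 93.5% of the calls, with 1479 higher and 1350 lower in KO cells at 12h. With 8 mice 5420 of 12126 genes were called (44.7%), 2583 of them positive (21.3%) and 2837 negative (23.4%), and 5219 (96.3%) were closing. In all, 2785 genes were called in both fits, all of them in the same direction, and 2592 were closing in both. Without KO mouse 5 the calls with 10 mice were 1949, and without WT mouse 5 those with 8 mice were 3512. The count with 10 mice also changed with the libraries in the fit, and without the term per mouse it was 1406. When the libraries of all 5 times entered the fit, edgeR called no gene with 10 mice (1398 at an unadjusted p under 0.05). With 8 mice 813 were called. The estimated common dispersion with 10 mice was 0.0883 in place of 0.0272. All 3025 genes kept their sign with all 5 times. Both fits hold the same 12h and 24h libraries, so kept signs were largely given by the design and are no separate support. A DESeq2 test of the 20 libraries called 3482 genes. Of the 3439 genes that differed at 12h with 10 mice, 2167 (63%) had a called closing interaction and 18 were still called at 24h, in the same direction. With 8 mice 4874 of 6231 (78.2%) were closing, 302 were also called at 24h in the same direction and 64 in the opposite direction. Both sets were chosen by their 12h values, which also enter the interaction. A smaller difference at 24h is therefore in part expected from the choice alone, and few calls among them could be widening (5 with 10 mice, 9 with 8).

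The side that moved was more often WT. With 10 mice, 6277 genes changed between 12h and 24h in KO cells (51.8%) and 7158 in WT cells (59.1%). With 8 mice these were 7878 (65%) and 8638 (71.2%). A correction for transcript GC content and length is described with the GC values. After it 6910 genes changed in KO and 6943 in WT cells with 10 mice, and 8433 and 8544 with 8. The excess of changed genes in WT cells was thus small after the correction. Of the 2829 closing genes with 10 mice, 693 changed in KO cells alone, 1271 in WT cells alone, 478 in both in the same direction, 347 in both in opposite directions and 40 in neither by the test of each change. With 8 mice the most frequent pattern was a change of both in the same direction, for 1986 of 5219 closing genes. There 802 changed in KO cells alone, 1765 in WT cells alone, 632 in opposite directions and 34 in neither. With 10 mice the larger of the 2 changes was in WT cells for 64.5% of the closing genes, against 54.4% of all genes tested. With 8 mice this share was 75.4%, against 66.4% of all genes. Among the closing genes called after the GC and length correction it was 58.8% with 10 mice and 73.4% with 8. Among the 1479 closing genes that were higher in KO cells at 12h, 581 fell and 171 rose in KO cells, and 1103 rose and 49 fell in WT cells. Among the 1350 that were lower in KO cells at 12h, 612 rose and 154 fell in KO cells, and 104 rose and 840 fell in WT cells. The median change of the genes higher in KO cells at 12h was -0.13 in KO and 0.41 in WT cells, and that of the genes lower in KO cells was 0.16 in KO and -0.30 in WT cells.

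**Figure D1:**
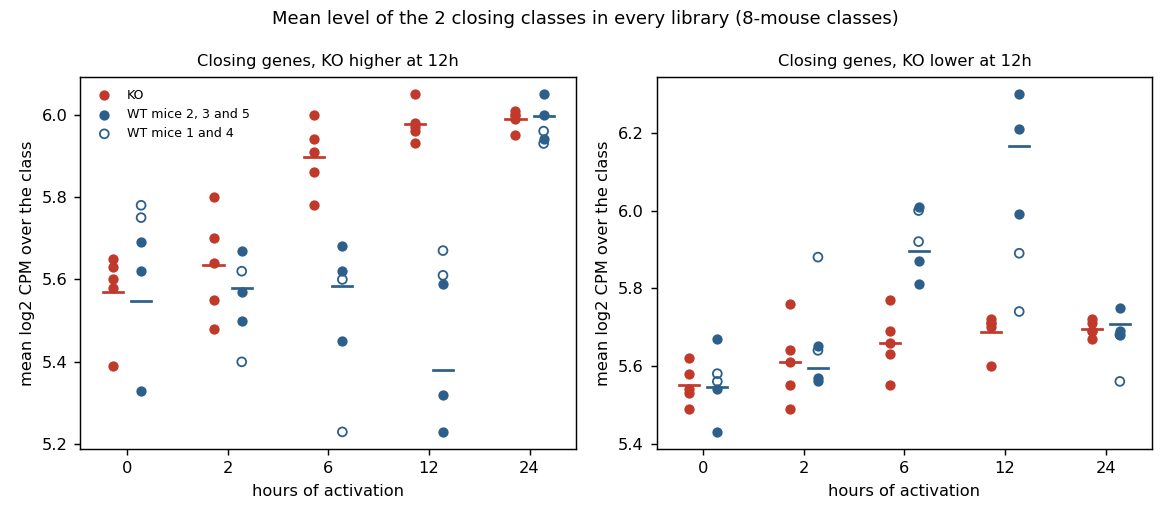
Mean log2 CPM of the closing genes of the 8-mouse fit in each library at 0, 2, 6, 12 and 24 hours, KO left of WT, with genes higher in KO at 12h on the left panel and genes lower in KO at 12h on the right. Bars are means of the filled points, and open circles are WT mice 1 and 4, which are not in that mean. At 12h the KO points lie above all WT points on the left panel and at or below 5.72 on the right panel, and at 24h the genotypes overlap. The classes were chosen by their 12h and 24h values, so these 2 times show the choice, and the earlier libraries did not enter it.

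Libraries of the earlier times, which did not enter the choice of these genes, held differences of the same sign for most of them at 6h, at smaller medians than at 12h with 8 mice (0.53 and -0.45 at 12h). With 8 mice, 91.2% of the 2731 closing genes that were higher in KO cells at 12h were also higher in KO cells at 6h, with a median log2 difference of 0.25, against 52.8% of all genes. For the 2488 genes lower in KO cells at 12h, 7.23% were higher in KO cells at 6h (median -0.24). At 2h these shares were 45.6% and 53.4%, against 51.9% of all genes, and at 0h 42.3% and 47.9%, against 51.7% of all genes. With 10 mice the shares were 98.8% and 1.48% at 6h, and 59.7% and 33.6% at 2h. The libraries at 6h come from the same mice, so they are not independent of the choice of genes at the level of animals. The plot of class levels by time shows the difference as present at 6h. Its separation at 12h and overlap at 24h follow in large part from how the classes were chosen.

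The early transcription factors moved largely one way. Of the 25 members of this list, 20 had a negative interaction with 10 mice and 0 a positive one (median -0.76, against 0.05 over all genes), and 17 of the 20 were closing. With 8 mice 20 were negative and 1 was positive, with 19 closing. Of all genes 13% were negative with 10 mice and 23.4% with 8. In this list the larger change was more often in KO cells, for 12 of the 17 closing members with 10 mice and 13 of the 19 with 8 mice. Among all closing genes it was in WT cells for the larger share. Members that closed in both fits are the AP-1 subunits Jun, Junb, Jund, Fosl1 and Fosl2, the zinc finger factors Egr1, Egr2 and Egr3, and the orphan nuclear receptors Nr4a2 and Nr4a3. Also closing in both were the calcium-responsive factor Nfatc1, the NF-kB subunits Nfkb1, Nfkb2, Rel and Relb, the NF-kB regulator Nfkbid and the immediate early gene Ier2. Batf3, Irf4, Nfkbia and Ier3 were not called in either fit, and Batf was positive with 8 mice. The list holds 25 genes grouped by function and, like the other lists, chosen with earlier results of these data known. All 25 were looked at, beyond the 3 per list that the rule for named genes takes.

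**Figure D2:**
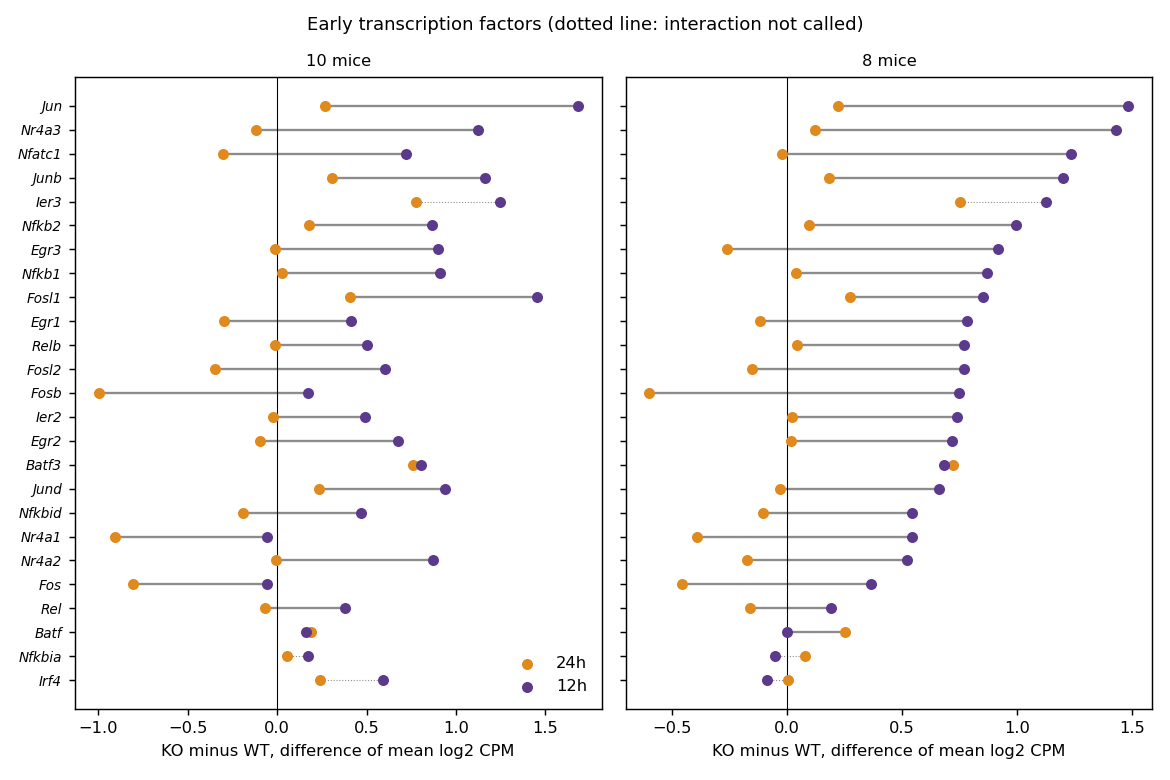
KO minus WT difference of mean log2 CPM for the 25 early transcription factors at 24h (orange) and 12h (purple), with 10 mice on the left panel and 8 mice on the right. A dotted line joins the points where the interaction was not called. Most purple points lie right of zero and most orange points near or left of it.

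Nr4a3, an orphan nuclear receptor that T cell receptor signals induce, came down in KO cells and up in WT cells. At 24h it had 381, 416, 420, 448 and 418 CPM in KO mice 1 to 5, against 659, 430, 376, 482 and 352 CPM in WT mice 1 to 5. At 12h it had 685, 610, 622, 617 and 774 CPM in KO mice, against 399, 254, 307, 382 and 201 CPM in WT mice. The genotypes overlap at 24h and do not overlap at 12h. Named genes here and below were chosen largely by their interaction, so a gap at 12h follows in part from that choice. The share of all genes without overlap was not counted. The KO change was -0.65 and the WT change 0.59 on the log2 scale, an interaction of -1.24 ± 0.14 (SE, edgeR adjusted p = 0.00112), and -1.31 ± 0.14 with 8 mice (adjusted p = 0.00021). Nfkb1, the p105 precursor of an NF-kB subunit, had 868 to 987 CPM in KO mice and 812 to 974 CPM in WT mice at 24h, against 1380 to 1630 CPM in KO mice and 601 to 1040 CPM in WT mice at 12h. Its KO change was -0.65 and its WT change 0.23 (interaction -0.89 ± 0.13, adjusted p = 0.00175). Egr2 fell in both genotypes and by more in KO cells, with changes of -1.34 in KO and -0.57 in WT cells, and its interaction was -0.77 ± 0.11 (adjusted p = 0.00169). Myc, the growth regulator, had 630 to 691 CPM in KO mice and 453 to 750 CPM in WT mice at 24h, against 1200 to 1270 CPM in KO mice and 266 to 877 CPM in WT mice at 12h. Its KO change was -0.90 while the WT change, 0.24, was not called (interaction -1.14 ± 0.18, adjusted p = 0.0022).

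Junb closed from the other side. It had 297, 256, 247, 271 and 252 CPM in KO mice at 24h, against 155, 250, 232, 218 and 220 CPM in WT mice. At 12h it had 257, 235, 255, 255 and 272 CPM in KO mice, against 93.7, 103, 145, 131 and 97.0 CPM in WT mice. The KO change, 0.07, was not called, and the WT level rose by 0.93 on the log2 scale (interaction -0.86 ± 0.13, adjusted p = 0.002). Nfkb2, which encodes the p100 precursor, likewise rose in WT cells alone (KO change -0.05, WT change 0.64, adjusted p of the interaction 0.00782). Fos, Fosb and Nr4a1 had negative interactions with 10 mice of -0.76, -1.19 and -0.85 but widened, since their KO levels at 24h lay below the WT levels. With 8 mice Fosb and Nr4a1 were closing, and Fos still widened. With 10 mice Fos lost its call without KO mouse 1, 2 or 3 or WT mouse 5, and Relb without KO mouse 3, 4 or 5 or WT mouse 2 or 5.

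In the promoter windows of this list that RefSeq's table for GRCm38.p6 holds (18 of 25 genes, 250 bases before to 50 bases after a gene's start), the NF-kB-like letters GGGNNTTCC on either strand occur in 3 genes, all of them closing. These are 16.7% of the 18 genes, of which 10 were closing with 10 mice and 12 with 8. No link of the letters to closing can be read from so few genes. The windows are shown because these 3 genes encode NF-kB subunits or, for Nfkbid, a regulator of NF-kB, and closed together. They were chosen after their values were seen. For Nfkb2 and Nfkbid 1 of 3 windows is shown. Capitals mark the matched letters, and a stretch of 10 capitals in Nfkb2 holds overlapping matches of both strands.
Nfkb2 promoter, chr19:46304487-46304786, + strand: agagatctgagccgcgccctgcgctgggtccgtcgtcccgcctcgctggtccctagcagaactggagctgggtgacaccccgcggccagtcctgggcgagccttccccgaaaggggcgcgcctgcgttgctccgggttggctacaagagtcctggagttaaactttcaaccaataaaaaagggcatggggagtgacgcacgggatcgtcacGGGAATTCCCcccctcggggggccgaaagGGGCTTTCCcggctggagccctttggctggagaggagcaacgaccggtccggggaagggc
Nfkbid promoter, chr7:30422156-30422455, + strand: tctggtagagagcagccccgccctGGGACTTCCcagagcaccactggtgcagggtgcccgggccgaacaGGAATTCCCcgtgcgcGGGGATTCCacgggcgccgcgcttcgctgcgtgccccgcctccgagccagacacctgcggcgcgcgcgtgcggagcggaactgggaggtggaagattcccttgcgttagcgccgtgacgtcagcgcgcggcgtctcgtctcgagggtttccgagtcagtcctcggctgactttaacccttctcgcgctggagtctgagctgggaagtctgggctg
Rel promoter, chr11:23770920-23771219, - strand: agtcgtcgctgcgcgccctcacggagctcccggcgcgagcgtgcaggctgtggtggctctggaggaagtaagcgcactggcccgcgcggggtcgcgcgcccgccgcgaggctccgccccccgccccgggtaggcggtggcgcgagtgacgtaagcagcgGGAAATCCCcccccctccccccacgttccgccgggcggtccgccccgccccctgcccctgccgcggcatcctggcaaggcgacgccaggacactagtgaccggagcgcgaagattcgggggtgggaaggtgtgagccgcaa
The same letters were found in 8.65% of the 9476 tested genes with a window, in 9.39% of the closing genes higher in KO cells at 12h and in 8.64% of those lower in KO cells, so the shares of the closing genes lay near that of all genes. The AP-1 letters TGANTCA occur in 4.82% and 5% of these 2 groups and in 6.04% of all tested genes with a window. Both motifs can overlap other motifs, and a match is a description of letters.

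Effector fate and cytokine genes came next. With 10 mice the list median of KO minus WT was 0.22 at 24h and 0.95 at 12h for cytokines, and 0.03 at 24h and 0.39 at 12h for fate factors, against 0.01 at 24h and -0.05 at 12h over all genes. Among 15 tested cytokine genes 6 had a negative interaction and 0 a positive one with 10 mice, and with 8 mice it was 7 of 13, against 13% of all genes negative with 10 mice and 23.4% with 8. Among 16 effector and fate transcription factors 4 were negative and 1 positive with 10 mice, and 10 were negative and 0 positive with 8 mice. The larger change was in WT cells for 4 of the 5 closing cytokines and 2 of the 4 closing factors with 10 mice. Tbx21, which encodes T-bet, the factor that drives type 1 effector genes, had 161, 184, 165, 167 and 155 CPM in KO mice at 24h, against 80.5, 175, 150, 168 and 144 CPM in WT mice. At 12h it had 129, 165, 156, 159 and 135 CPM in KO mice, against 10.6, 56.0, 64.9, 55.5 and 39.4 CPM in WT mice. Every KO value at 12h lay above every WT value, and at 24h the genotypes overlapped, with WT mouse 1 low. The KO change, 0.19, was not called, and Tbx21 rose by 1.83 in WT cells (interaction -1.65 ± 0.25, adjusted p = 0.00218, and -1.43 ± 0.13 with 8 mice). Runx3, a partner of T-bet in CD8+ T cells, rose in both, with changes of 0.20 in KO and 1.10 in WT cells (interaction -0.90 ± 0.09, adjusted p = 0.000715).

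Lif, which signals through the gp130 receptor chain, followed the same course. At 24h it had 117, 169, 149, 174 and 164 CPM in KO mice, against 77.9, 152, 121, 181 and 123 CPM in WT mice. Its 12h levels were 139, 160, 161, 152 and 205 CPM in KO mice, against 14.9, 48.6, 48.3, 74.9 and 42.0 CPM in WT mice, with no overlap. Lif rose by 1.64 in WT cells and the KO change was -0.06 (interaction -1.70 ± 0.19, adjusted p = 0.00139). Tgfb1, an immunosuppressive cytokine, rose by 1.34 in WT cells with a KO change of 0.13 (interaction -1.21 ± 0.15, adjusted p = 0.00142). Ifng, the main type 1 cytokine of CD8+ T cells, had 535 to 1260 CPM in KO mice and 112 to 455 CPM in WT mice at 24h, against 414 to 2510 CPM in KO mice and 17.2 to 235 CPM in WT mice at 12h. Its groups did not overlap at either time, so Ifng closed in part. Its interaction was -1.91 ± 0.39 (adjusted p = 0.00694) with 10 mice and -1.46 ± 0.34 with 8 mice (adjusted p = 0.0112). The KO minus WT difference of Ifng at 24h, 1.19, did not pass the test over that time's libraries (adjusted p = 0.259). NK cells could also carry Ifng. Summed NK cell genes were 167 to 264 CPM in KO mice and 45.3 to 204 CPM in WT mice at 24h. At 12h they were 181 to 402 CPM in KO mice and 29.7 to 213 CPM in WT mice. The lowest 12h sums were those of WT mice 1 and 4 (29.7 and 105 CPM), and the other WT mice had 166 to 213 CPM. The median KO minus WT difference over the list went the other way at 12h, at -0.16 with 10 mice and -0.44 with 8. At 24h it was 0.36 and 0.33. The part of NK cells in the result was not tested. The NK receptor Ncr1 stayed at or under 0.563 CPM in all 20 libraries.

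Receptor genes were mixed. Of 17 cytokine receptor chains 4 were negative and 1 positive with 10 mice, and of 10 inhibitory receptors 2 were negative and 1 positive, against 13% negative and 11.9% positive of all genes. Lag3, an inhibitory receptor that binds MHC class II, fell in KO cells and rose in WT cells. At 24h it had 80.1 to 103 CPM in KO mice and 73.4 to 123 CPM in WT mice, against 107 to 161 CPM in KO mice and 36.3 to 78.7 CPM in WT mice at 12h. Its interaction was -1.32 ± 0.11 (adjusted p = 0.000426), and -1.26 ± 0.10 with 8 mice. The inhibitory receptor Tigit had an interaction of -0.82 ± 0.20 with 10 mice. Il12rb2, a chain of the interleukin-12 receptor, rose by 1.01 in WT cells with a KO change of 0.11 (interaction -0.90). Il2rb, the interleukin-2 receptor beta chain, rose in both, with changes of 0.29 in KO and 0.93 in WT cells (interaction -0.64). Il6ra moved on the KO side, with a fall of 1.25 in KO cells and a WT change of -0.20 (interaction -1.05). The survival gene Bcl2 fell by 0.48 in KO cells with a WT change of 0.16 (interaction -0.64).

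**Figure D3:**
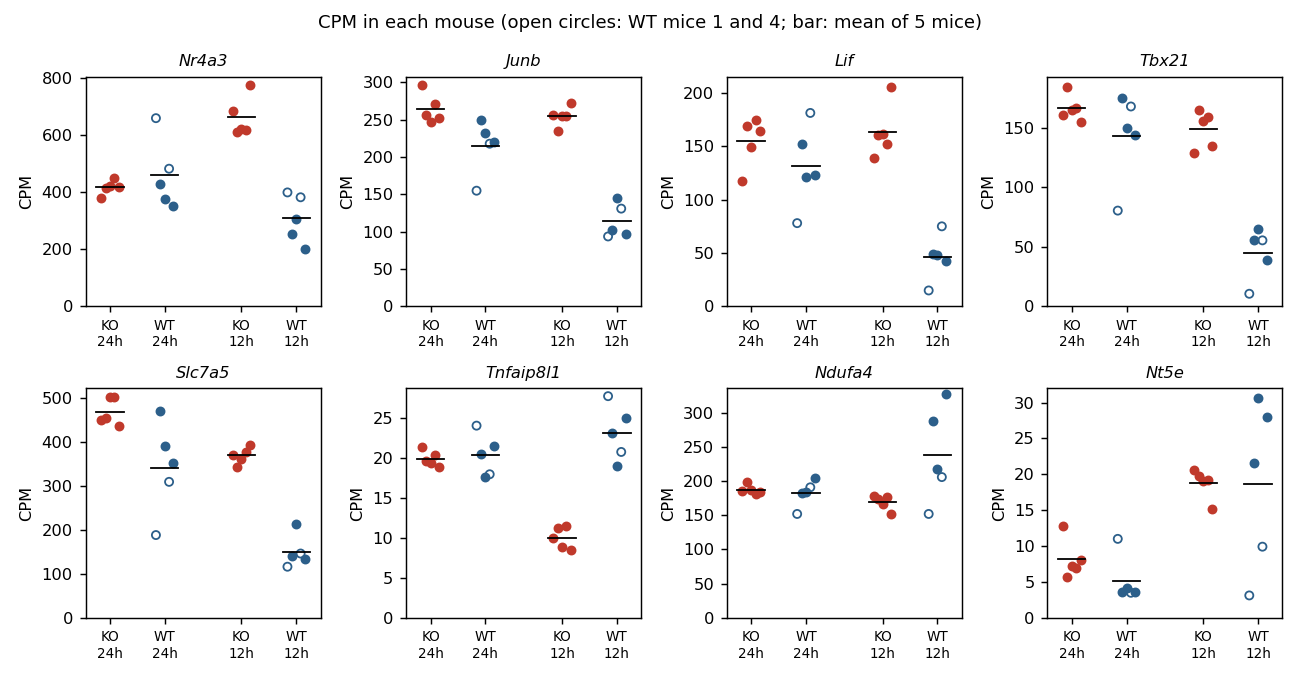
CPM of 8 genes in each mouse at 24h and 12h, KO left of WT within each time. Points are mice in order 1 to 5, open circles are WT mice 1 and 4, and bars are means of 5 mice. For Nr4a3, Junb, Lif, Tbx21 and Slc7a5 the KO points at 12h all lie above the WT points, and for Tnfaip8l1 all below. These genes were picked with their values known, so a gap at 12h follows in part from the choice. Of all genes tested at 12h, 29.9% were called with 10 mice.

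Single genes of nutrient uptake and biosynthesis rose in WT cells and closed. Slc7a5, which carries large neutral amino acids, had 449, 455, 502, 502 and 435 CPM in KO mice at 24h, against 188, 469, 391, 309 and 351 CPM in WT mice. Its 12h levels were 370, 342, 362, 378 and 393 CPM in KO mice, against 116, 140, 214, 146 and 134 CPM in WT mice. It rose in both genotypes, with changes of 0.36 in KO and 1.17 in WT cells (interaction -0.81 ± 0.17, adjusted p = 0.00782). Slc7a1, a carrier of cationic amino acids, rose by 0.79 in WT cells with a KO change of -0.07 (interaction -0.86 ± 0.13). In all 5 of 14 amino acid transporters had a negative interaction and 0 a positive one with 10 mice, and 5 and 1 with 8 mice. Of all genes 13% were negative and 11.9% positive with 10 mice, and 23.4% and 21.3% with 8. Srm, which makes spermidine, rose by 0.90 in WT cells (interaction -0.84), and Ass1, an enzyme of arginine synthesis, was called with 8 mice (-1.47, adjusted p = 0.000269) and not with 10 (-0.84, adjusted p = 0.0926).

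Hk2, the inducible hexokinase of glycolysis, had 208 to 233 CPM in KO mice and 78.2 to 223 CPM in WT mice at 24h, against 173 to 227 CPM in KO mice and 30.9 to 105 CPM in WT mice at 12h. Its changes were 0.28 in KO and 1.43 in WT cells, both called (interaction -1.15 ± 0.16, adjusted p = 0.00155). With 10 mice 3 of 21 glycolysis genes were negative, Pfkl among them (-0.52), and 0 were positive, near the 13% of all tested genes that were negative. Cad, which starts pyrimidine synthesis, rose by 1.39 in WT cells with a KO change of 0.12 (interaction -1.27 ± 0.16). Impdh1, of guanine nucleotide synthesis, fell by 0.30 in KO and rose by 0.68 in WT cells (interaction -0.98). Of 21 nucleotide synthesis genes 3 were negative and 0 positive with 10 mice, and 5 were negative and 5 positive with 8 mice, near the shares of all genes (13% negative with 10 mice, 23.4% negative and 21.3% positive with 8). Fasn, the fatty acid synthase, rose by 0.95 in WT cells (interaction -1.13), Shmt2, of mitochondrial one-carbon metabolism, by 0.73 (-0.61), Vars, the valyl-tRNA synthetase, by 1.07 (-0.78), Polr1a, the catalytic subunit of RNA polymerase I, by 0.58 (-0.84) and Egln1, an oxygen sensor, by 0.69 (-0.64).

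Oxidative phosphorylation subunits showed the opposite pattern. Of 40 tested genes 22 had a positive interaction and 0 a negative one with 10 mice, all 22 closing from a lower level in KO cells at 12h, and with 8 mice it was 30 positive and 3 negative. Of all genes 11.9% were positive with 10 mice and 21.3% with 8. A correction for transcript GC content and length, described with the GC values, left 8 positive and 1 negative in this list with 10 mice, and 23 and 3 with 8. The median KO minus WT difference of the list was 0.02 at 24h and -0.35 at 12h, with a median change of 0.12 in KO and -0.28 in WT cells. Ndufa4, a subunit of the respiratory chain, had 186, 199, 187, 181 and 184 CPM in KO mice at 24h, against 152, 183, 184, 191 and 204 CPM in WT mice. At 12h it had 179, 174, 167, 177 and 152 CPM in KO mice, against 152, 288, 218, 206 and 327 CPM in WT mice. WT mouse 1 lay within the KO range at 12h and the other 4 WT mice above it. The interaction of Ndufa4 was 0.49 ± 0.14 with 10 mice (adjusted p = 0.0226) and 0.65 ± 0.10 with 8 mice (adjusted p = 0.000458), and with 10 mice it lost its call without KO mouse 2, 3 or 5 or WT mouse 2 or 5. With that correction Ndufa4 was at 0.00 (adjusted p = 0.975) with 10 mice and was not called with 8. Cox6c, of the terminal oxidase, had 0.52 ± 0.10, and Ndufb3, of complex I, had 0.58 ± 0.10, a call that the correction also ended.

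Before the GC and length correction, calls in the tricarboxylic acid cycle were positive for the larger part, and those among ribosomal proteins were all positive. Of 21 cycle genes 7 were positive and 2 negative with 10 mice, and 9 and 5 with 8 mice. All tested genes were 11.9% positive and 13% negative with 10 mice, and 21.3% and 23.4% with 8. After the correction 3 cycle genes were positive and 2 negative with 10 mice (median 0.03, against 0.15 before it), and 7 and 4 with 8. Mdh1, a malate dehydrogenase, had 253 to 267 CPM in KO mice and 247 to 268 CPM in WT mice at 24h, against 194 to 232 CPM in KO mice and 291 to 401 CPM in WT mice at 12h, where the groups did not overlap. It rose by 0.27 in KO and fell by 0.40 in WT cells (interaction 0.67 ± 0.10, adjusted p = 0.00168). Of 30 cytosolic ribosomal protein genes 6 were positive and 0 negative with 10 mice, and 23 and 0 with 8 mice. Rpl7 fell by 0.24 in KO and by 0.68 in WT cells (interaction 0.44 ± 0.11, adjusted p = 0.0157).

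Of 25 sterol and fatty acid synthesis genes 8 were positive and 3 negative with 10 mice and 7 and 7 with 8 mice. The shares of all genes were 11.9% positive and 13% negative with 10 mice, and 21.3% and 23.4% with 8. With 10 mice the positive ones were sterol pathway enzymes, and the negative ones were the fatty acid synthesis genes Acaca and Fasn and the sterol regulator Srebf2. Msmo1, a sterol oxidase, had 61.6 to 75.8 CPM in KO mice and 63.3 to 81.8 CPM in WT mice at 24h, against 75.4 to 85.3 CPM in KO mice and 112 to 157 CPM in WT mice at 12h. It fell by 0.21 in KO and by 0.91 in WT cells (interaction 0.70 ± 0.09, adjusted p = 0.00146). Fdft1, the squalene synthase, fell by 0.59 in WT cells with a KO change of 0.02 (interaction 0.61), and Nsdhl, a later enzyme of the path, rose by 0.43 in KO cells and fell by 0.17 in WT cells (interaction 0.60).

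Other genes that were lower in KO cells at 12h closed from one side or the other. Tnfaip8l1, of the TNFAIP8 family, had 21.4, 19.7, 19.4, 20.4 and 18.9 CPM in KO mice at 24h, against 24.1, 20.6, 17.6, 18 and 21.5 CPM in WT mice. Its 12h levels were 10.0, 11.3, 8.86, 11.5 and 8.54 CPM in KO mice, against 27.8, 23.2, 19.0, 20.8 and 25.1 CPM in WT mice, with no overlap. It rose by 1.02 in KO cells with a WT change of -0.17 (interaction 1.19 ± 0.10, adjusted p = 0.000426). Nqo2, a quinone reductase, rose by 1.98 in KO cells with a WT change of 0.20 (interaction 1.78 ± 0.38), Psph, of serine synthesis, rose by 0.87 in KO cells (0.66 ± 0.13), and Cenpa, the histone of centromeres, rose in both, with changes of 2.30 in KO and 1.28 in WT cells (1.02 ± 0.23). On the WT side, the receptor chain gene Cd3d fell by 0.36 in KO and by 0.91 in WT cells (0.56 ± 0.12), and Sat1, which acetylates polyamines, fell by 0.62 in WT cells (0.69). Icos, a costimulatory receptor, fell by 0.27 in WT and rose by 0.20 in KO cells (0.48). Sesn1, a p53 target, fell by 0.95 in WT cells (0.74), Bnip3l, a mitophagy receptor, by 0.97 (0.65) and the cell cycle inhibitor Cdkn1b by 0.65 (0.50), with KO changes of -0.21, -0.32 and -0.15 that were not called for these 3 genes with 10 mice. Bnip3l lost its interaction call without KO mouse 5 or WT mouse 2 or 5.

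The median change of the 35 S phase genes was 1.74 in KO and 1.58 in WT cells with 10 mice. Their summed level at 24h was 11200 to 11600 CPM in KO mice. It was 12000 to 12400 CPM in the 3 WT mice of the 8-mouse fit, with 6110 CPM in WT mouse 1 and 10500 CPM in WT mouse 4. The 12h sums were 4210 to 5700 CPM in KO mice and 3530 to 4510 CPM in WT mice. With 10 mice 3 of the 35 were positive and 4 negative, against 11.9% and 13% of all genes. With 8 mice 3 were positive and 12 negative, against 21.3% and 23.4% of all genes. Mcm3, of the replicative helicase, rose in both, with changes of 0.82 in KO and 1.58 in WT cells (interaction -0.75 ± 0.17, adjusted p = 0.00915), and Pold1, a DNA polymerase, rose in both too (-0.45). Cdk6, a G1 kinase, fell by 0.17 in KO and rose by 0.38 in WT cells (-0.55). Of 28 genes of G2 and mitosis 1 had a called interaction in each fit. Their summed level at 12h was 250 to 279 CPM in KO mice 1 to 4 and 934 CPM in KO mouse 5, against 241 to 258 CPM in the 3 WT mice of the 8-mouse fit. WT mouse 1 had 2560 CPM and WT mouse 4 had 1640 CPM at 12h. At 24h the sum was 3860 CPM in WT mouse 1 and 4970 CPM in WT mouse 4. It was 5450 to 5980 CPM in the 3 WT mice of the 8-mouse fit and 5670 to 6130 CPM in KO mice at 24h.

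**Figure D4:**
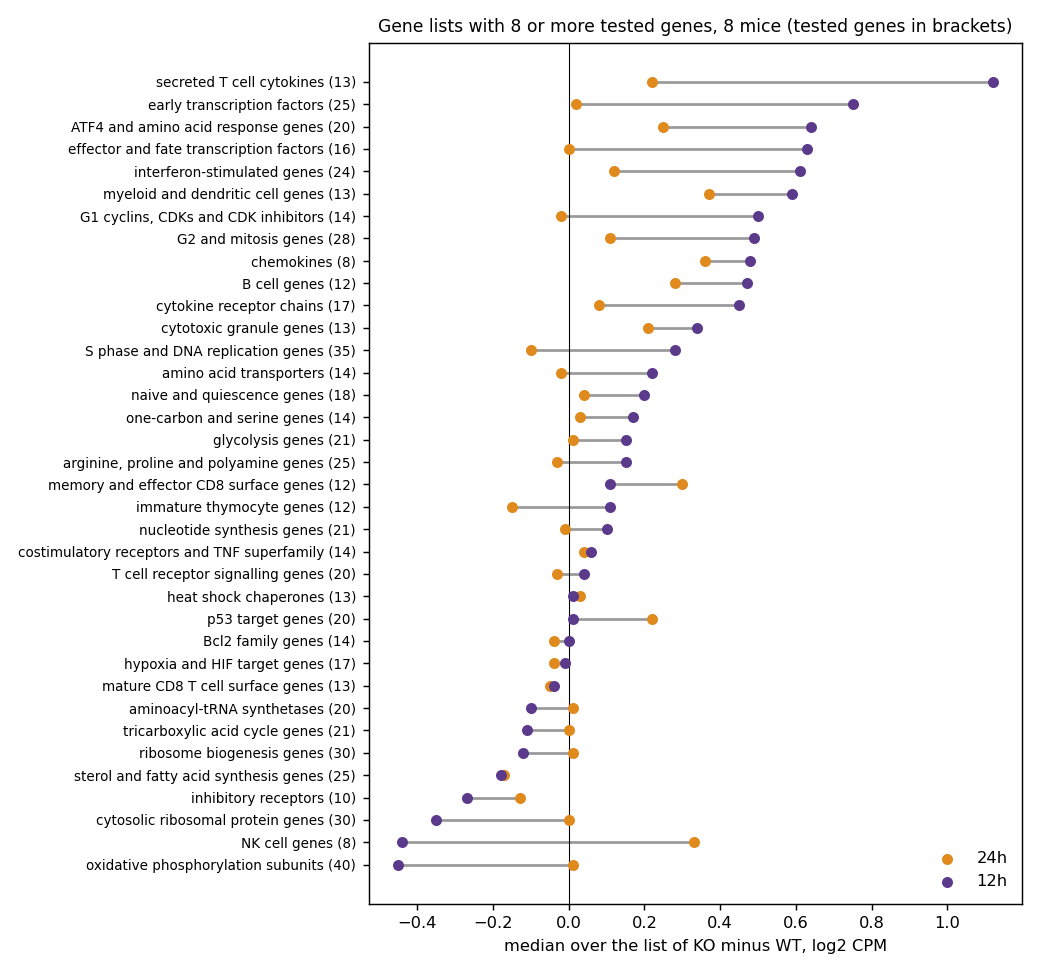
Median KO minus WT difference (log2 CPM) over each gene list with 8 or more tested genes at 24h (orange) and 12h (purple), 8-mouse fit, with the number of tested genes in brackets. At 12h cytokines (1.12) and early transcription factors (0.75) lie highest and oxidative phosphorylation (-0.45) and NK cell genes (-0.44) lowest, and at 24h these 4 lists lie at 0.22, 0.02, 0.01 and 0.33.

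Few differences opened between 12h and 24h. Widening genes numbered 196 with 10 mice (97 higher and 99 lower in KO cells at 24h) and 201 with 8 mice (95 and 106), and the class of single genes depended on the mice used. Without WT mouse 1 the 10-mouse fit held 98 and without WT mouse 4 it held 363, and the 8-mouse fit without WT mouse 2 held 90. Car2, a carbonic anhydrase, widened in both fits. At 24h it had 3.15 to 6.43 CPM in KO mice and 1.33 to 3.67 CPM in WT mice, against 8.03 to 24.5 CPM in KO mice and 10.2 to 23.1 CPM in WT mice at 12h. It fell in both genotypes, with changes of -1.58 in KO and -2.82 in WT cells (interaction 1.24 ± 0.24, adjusted p = 0.00443). Nt5e, an ecto-enzyme that makes adenosine, had 5.70 to 12.8 CPM in KO mice and 3.48 to 11.0 CPM in WT mice at 24h, with the highest WT value in mouse 1. With 8 mice its changes were -1.25 in KO and -2.78 in WT cells, both called (interaction 1.53 ± 0.23, adjusted p = 0.000521), and with 10 mice the interaction, 0.56 ± 0.82, was not called. Cd40lg, the ligand of CD40, was called with 8 mice (-1.14, adjusted p = 0.00206) and not with 10 (-0.78, adjusted p = 0.0567), with levels under 7 CPM in all 20 libraries. Arrdc3 and Txnip, both of the arrestin family and the second a brake on glucose uptake, had positive interactions in both fits (1.00 and 0.77 with 10 mice) but widened with 10 mice and closed with 8. The kinase gene Zap70, Alpl (an alkaline phosphatase) and Csf1 (a growth factor of macrophages) had negative interactions in both fits (-0.63, -1.40 and -1.79 with 10 mice) and likewise widened with 10 mice and closed with 8. With 8 mice Csf1 lost its call without WT mouse 3 or 5, and Tigit without WT mouse 5.

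Other lists were split, or held few calls with 10 mice. They are to be read against 25% of all genes called with 10 mice and 44.7% with 8. Several did not reach the first share, and several of them held more calls with 8 mice. No chemokine gene of 8 was called in either fit. With 10 mice 0 of 13 cytotoxic granule genes were called, and with 8 mice 4 were positive and 1 negative. Interferon-stimulated genes depended on the mice, with 1 of 24 called with 10 mice and 11 negative of 24 with 8 mice. Among p53 targets 5 of 20 were positive and 1 negative with 10 mice, and among ATF4 and amino acid response genes 2 of 20 were positive and 2 negative. With 8 mice p53 targets had 6 positive and 2 negative calls, and the ATF4 list 3 positive and 7 negative. Ribosome biogenesis genes were negative in 6 of 30 with 10 mice, while with 8 mice 11 were positive and 7 negative. Aminoacyl-tRNA synthetases had 1 positive and 4 negative calls of 20 with 10 mice, and 8 and 6 with 8 mice. In the arginine, proline and polyamine list 2 of 25 were positive and 3 negative with 10 mice, and in the one-carbon and serine list 2 of 13 and 3. With 8 mice these lists had 3 and 7 of 25, and 2 and 4 of 14. T cell receptor signalling genes had 2 positive and 2 negative calls of 20, costimulatory receptors 2 and 1 of 14, naive and quiescence genes 2 and 3 of 18, and G1 genes 2 and 2 of 14 with 10 mice. With 8 mice these lists had, in the same order, 5 and 7, 3 and 2, 5 and 6, and 2 and 6. Hypoxia targets had 3 and 1 of 17 with 10 mice, heat shock chaperones 1 and 1 of 13, Bcl2 family genes 0 and 2 of 14, memory and effector surface genes 0 and 1 of 12, and mature CD8 surface genes 1 and 0 of 13. With 8 mice these were, in the same order, 5 and 2, 4 and 3, 2 and 3, 4 and 1, and 4 and 1. Of the lists for other cells, immature thymocyte genes had 1 call of 15, CD4 and regulatory T cell genes 2 of 7, NK cell genes 0 of 6, erythroid genes 1 of 5 and stromal genes 0 of 3 with 10 mice. With 8 mice immature thymocyte genes had 1 positive and 2 negative calls of 12, CD4 and regulatory T cell genes 0 and 2 of 7, and NK cell genes 3 and 1 of 8. Summed B cell genes at 24h were 584 to 664 CPM in KO mice and 563 to 639 CPM in WT mice. The 12h sums were 816 to 1450 CPM in KO mice and 535 to 889 CPM in WT mice, with 1 of 12 tested genes called. Summed myeloid and dendritic cell genes were 37.1 to 45.4 CPM in KO mice and up to 135 CPM in WT mice at 24h, with 2 of 13 called. The part of B cells and myeloid cells in the results was not tested.

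Transcript GC content and length moved with the closing classes. The median GC content of the longest transcript was 53.6% for closing genes higher in KO cells at 12h, 45.1% for those lower in KO cells and 49.8% for all tested genes with 10 mice, and the median lengths were 4410, 2819 and 3351 bases. Over 10 equal groups of the genes ordered by GC content the median KO minus WT difference at 12h ran between -0.25 and 0.17 with 10 mice and between -0.30 and 0.36 with 8 mice, and at 24h between -0.02 and 0.04 and at -0.01 or 0. The change between 12h and 24h along this order was in WT cells (medians -0.24 to 0.24 with 10 mice), and in KO cells the medians ran between -0.04 and 0.03. The count-weighted GC content of a library at 24h was 49.24% to 49.43% in KO mice and 49.27% to 49.55% in WT mice, and at 12h 49.26% to 49.45% in KO mice and 49.05%, 48.45%, 48.89%, 49.20% and 48.42% in WT mice 1 to 5. Whether this comes from the cells or from the libraries was not tested.

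**Figure D5:**
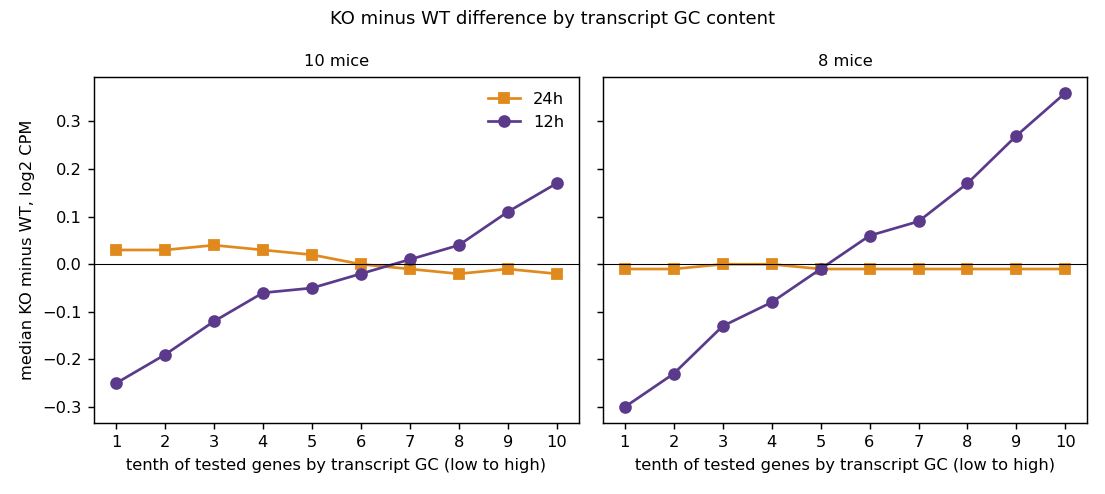
Median KO minus WT difference (log2 CPM) in 10 equal groups of the tested genes ordered by transcript GC content, at 24h (orange squares) and 12h (purple circles), with 10 mice on the left and 8 mice on the right. The 12h medians rise with GC content, to 0.17 with 10 mice and 0.36 with 8 mice, and the 24h medians stay near zero.

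An alternative chosen after this was seen removed a smooth dependence on GC content and length from each library and kept the term per mouse. It called 1497 genes with 10 mice (12.4%), 905 negative and 592 positive, of which 1244 were also called without the correction, all in the same direction, and 1414 (94.5%) were closing. With 8 mice 3935 genes were called (32.5%), 3785 of them closing. They were 2206 positive and 1729 negative, against 2583 and 2837 without the correction, and of the 3074 genes called with and without it 25 turned direction. Of the early transcription factors 19 of 25 were negative and 0 positive with 10 mice, with a median of -0.65, and 19 negative and 1 positive with 8 mice. Nr4a3 kept -1.10 (adjusted p = 0.00186), Lif -1.56, Tbx21 -1.48, Lag3 -1.19 and Tnfaip8l1 1.29. Fewer genes of the metabolic lists were called. The median of the oxidative phosphorylation genes with 10 mice was 0.20 after the correction, against 0.35 before it. Ribosomal protein genes kept 1 positive call of 30 with 10 mice and 17 with 8 mice. Rpl7 was at 0.12 (adjusted p = 0.424) with 10 mice after the correction, Ndufb3 at 0.21 (adjusted p = 0.249), Pold1 at -0.17 (adjusted p = 0.258), Il2rb at -0.45 (adjusted p = 0.0938) and Zap70 at -0.48 (adjusted p = 0.0914), and these 5 were not called with 8 mice either. With 10 mice Il6ra, Pfkl, Icos, Sat1, Bnip3l and Csf1 also lost their calls under the correction, and Csf1 did so with 8 mice too.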

How the data were processed

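Messenger RNA of splenic CD8+ T cells was sequenced as 50 nt single-end reads from a stranded poly(A) kit, as the labels' protocols state. Tools listed in the submitters' processing notes are STAR 2.4, CASAVA 1.8.2 and featureCounts 1.4.6, with the genome GRCm38. The annotation release, strand setting and multiply matching reads are not given in the sources used here. The authors deposited raw counts per gene without normalization, the only values used. Overlapping antisense genes and near-identical paralogs are therefore uncertain.

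Of 21647 genes, 21583 had a GENCODE M21 symbol, and 0 columns were left out. Genes were filtered by filterByExpr (minimum count 10, total 15), scaled by TMM and fitted in edgeR 4.0.16 (R 4.3.3, limma 3.58.1) with 1 term per mouse, leaving 8 residual degrees of freedom with 10 mice and 6 with 8 mice. KO against WT was fitted per time. The fits were tested on simulated data. Pairing comes from the labels, which give the mouse of each library. Deviations from group means in the 2 libraries of a mouse correlated by -0.00513 to 0.392 in KO and 0.528 to 0.765 in WT mice with 10 mice. With 8 mice they correlated by 0.000575 to 0.383 in KO and 0.172 to 0.342 in WT mice. Libraries correlated within groups by Spearman rho of 0.938 to 0.982, with 0 identical pairs. Levels are CPM, and log2 CPM used a prior count of 2. GC content and length came from the longest transcript of GENCODE M21.

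The members and the 39 gene lists were chosen with earlier results of these data known. Named genes were, per fit, up to 8 with the largest interaction in each class with at least 5 CPM in the highest group, and up to 3 per list with the smallest p, and the text names a subset. The deleted gene and results that need it are not reported here. DESeq2 1.42.0, other scalings, filters and left-out mice were alternatives.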

Additional observations from a re-analysis of the deposited data

Results flagged for a closer look

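The KO and WT changes between 12h and 24h differed for 3025 genes with 10 mice and for 5420 with 8 mice. Among the 72 genes looked at here, the test of the difference itself passed with 10 mice for the following, given as KO change minus WT change on the log2 scale. Negative values were largest for Ifng -1.91, Csf1 -1.79, Lif -1.70, Tbx21 -1.65, Alpl -1.40, Jun -1.39, Lag3 -1.32, Cad -1.27, Nr4a3 -1.24, Tgfb1 -1.21, Fosb -1.19, Hk2 -1.15, Myc -1.14 and Fasn -1.13. They were smaller for Il6ra -1.05, Nfatc1 -1.02, Impdh1 -0.98, Fosl2 -0.95, Egr3 -0.91, Runx3 -0.90, Il12rb2 -0.90, Nfkb1 -0.89, Nr4a2 -0.88, Slc7a1 -0.86, Junb -0.86, Nr4a1 -0.85, Srm -0.84 and Polr1a -0.84. Still smaller values were those of Tigit -0.82, Slc7a5 -0.81, Vars -0.78, Egr2 -0.77, Fos -0.76, Mcm3 -0.75, Egr1 -0.71, Jund -0.70, Nfkb2 -0.69, Nfkbid -0.66, Il2rb -0.64, Bcl2 -0.64, Egln1 -0.64 and Zap70 -0.63. The smallest of the negative values were those of Shmt2 -0.61, Cdk6 -0.55, Pfkl -0.52, Relb -0.51, Pold1 -0.45 and Rel -0.45. Positive values were those of Nqo2 1.78, Car2 1.24, Tnfaip8l1 1.19, Cenpa 1.02, Arrdc3 1.00, Txnip 0.77, Sesn1 0.74, Msmo1 0.70, Sat1 0.69, Mdh1 0.67 and Psph 0.66. Smaller positive values were those of Bnip3l 0.65, Fdft1 0.61, Nsdhl 0.60, Ndufb3 0.58, Cd3d 0.56, Cox6c 0.52, Cdkn1b 0.50, Ndufa4 0.49, Icos 0.48 and Rpl7 0.44. Fosl1 (-1.01) and Ier2 (-0.51), outside these 72, also passed.

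Single mice stood far from the other 4 of their group in 33 of 300 groups of 5, for 72 genes and 3 library measures, where chance flags about 1 group in 20. In WT mouse 1 at 24h, Nfatc1 was at 495 CPM (others 214 to 278), Ifng was at 112 CPM (others 366 to 455), Srm was at 222 CPM (others 503 to 588), Cd3d was at 363 CPM (others 212 to 253), Sesn1 was at 108 CPM (others 36.5 to 46.7), Bnip3l was at 59.5 CPM (others 26.7 to 30.3), Cdkn1b was at 61.3 CPM (others 33.7 to 36.1), Nt5e was at 11 CPM (others 3.48 to 4.11), Zap70 was at 483 CPM (others 261 to 322), Egr1 was at 307 CPM (others 159 to 200), Jund was at 210 CPM (others 512 to 584), Fosb was at 14.6 CPM (others 4.78 to 7.1), Fosl2 was at 83 CPM (others 39 to 44.8), Fos was at 24.7 CPM (others 9.29 to 11.3), Nfkb2 was at 300 CPM (others 412 to 423), the summed level of the immature thymocyte list was at 1550 CPM (others 418 to 624). In KO mouse 5 at 12h, Nfkb1 was at 1630 CPM (others 1380 to 1440), Hk2 was at 227 CPM (others 173 to 180), Mcm3 was at 614 CPM (others 469 to 503), Cd3d was at 223 CPM (others 273 to 290), Cox6c was at 80.3 CPM (others 94.5 to 97.9), Sesn1 was at 30.2 CPM (others 41.6 to 43.9), Nt5e was at 15.1 CPM (others 19.1 to 20.6), the summed level of the G2 and mitosis list was at 934 CPM (others 250 to 279). In KO mouse 4 at 24h, Myc was at 691 CPM (others 630 to 646). In WT mouse 1 at 12h, Il12rb2 was at 12.7 CPM (others 23.5 to 27.3), Cdkn1b was at 93 CPM (others 53.8 to 59). In KO mouse 2 at 12h, Srm was at 522 CPM (others 600 to 617). In KO mouse 5 at 24h, Vars was at 628 CPM (others 663 to 673). In KO mouse 1 at 24h, Cdkn1b was at 32.9 CPM (others 35.5 to 36.4). In KO mouse 2 at 24h, Cd40lg was at 5.15 CPM (others 3.18 to 3.62). In WT mouse 4 at 12h, Csf1 was at 6.86 CPM (others 1.25 to 1.96). In KO mouse 3 at 12h, Nr4a1 was at 463 CPM (others 512 to 524).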

How the results depend on the processing

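Counts of calls depended on the design of the fit. With the libraries of all 5 times and the replicate block, the interaction was called for 0 genes with 10 mice (0 closing, 0 widening; 1398 at an unadjusted p under 0.05) and for 813 with 8 mice (808 closing, 5 widening); changes were called for 2633 genes in KO and 3518 in WT cells with 10 mice and for 4629 and 5318 with 8. There the 10-mouse interaction of Nt5e was -0.17 (adjusted p = 0.948), opposite in sign to its value in the 20 libraries. Without the replicate block, that is without the pairing of a mouse's libraries, 1406 genes were called with 10 mice (1381 closing, 25 widening). The GC and length correction, chosen after seeing the data, left 1497 with 10 mice (1414 closing, 83 widening). Without WT mice 1 and 4 the counts were 5420 for the interaction, 5219 closing, and 613 at 24h and 6231 at 12h for KO against WT. In 1 fit of both times without a replicate block, KO against WT gave 8 genes at 24h and 5184 at 12h with 10 mice, and 57 at 24h with 8. The DESeq2 test gave 406 at 24h with 10 mice. The cause of these differences was not tested.

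Leaving out 1 mouse at a time gave 1949 to 3483 interaction calls with 10 mice (1850 to 3337 closing, 98 to 363 widening) and 3512 to 5989 with 8 (3393 to 5804 closing, 90 to 241 widening). KO against WT at 24h ran from 3 to 141 with 10 mice and from 227 to 827 with 8, and at 12h from 2212 to 4201 with 10. The share of closing genes with the larger step in WT cells stayed at 58.8% to 69.1% with 10 mice and 74.8% to 77.3% with 8. For the named genes, 698 of the values with 1 mouse left out of the 10 kept direction and call, 17 lost the call and 5 gained it. Of the 72 genes, 69 lost the call with all 5 times, 32 without the replicate block and 12 under the GC and length correction with 10 mice, and 39, 1 and 7 with 8. Low genes such as Car2, Cd40lg and Csf1 rest on few CPM.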
